A study of Mus musculus with 8 samples.

Results

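The enzymes that desaturate, elongate and activate fatty acids and that exchange the acyl chains of phospholipids were examined as a group of 9 genes in fructose-fed mouse liver. The genes were Fads1, Fads2, Elovl2, Elovl3, Elovl5, Scd2, Lpcat3, Acsl1 and Acsl5. They were taken by gene symbol from a table of read counts for 46078 genes, and all 9 were found and passed the filter on low counts. Liver RNA-seq was available from 5 wild-type (WT) mice and 3 mice with Rbfox2 deleted in hepatocytes (Rbfox2 KO). Every mouse was on the C57BL6/J background, was homozygous for a loxP-flanked Rbfox2 allele and drank 30% (w/v) fructose for 22 weeks. The diet began at 8 weeks of age, and livers were collected after fasting. The KO mice also carried a Cre recombinase driven by the albumin promoter, which acts in hepatocytes, whereas the WT controls lacked Cre. By design, other liver cells of the KO mice keep an intact Rbfox2 gene, which was not tested here. Rbfox2 encodes an RNA-binding regulator of splicing, and the comparison asks how transcript levels differ when it is lost from hepatocytes under a lipogenic diet.

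Essential fatty acids from the diet are converted in the liver to long polyunsaturated fatty acids by alternating steps of desaturation and elongation. FADS2 and FADS1 insert double bonds, and ELOVL5 and ELOVL2 add carbons to the polyunsaturated products. ACSL1 and ACSL5 couple free fatty acids to coenzyme A, the form in which they enter every later step. LPCAT3 then places polyunsaturated chains on lysophospholipids, in the cycle that remodels membrane phospholipids. ELOVL3 and SCD2 act mainly on saturated and monounsaturated chains, so they stand beside the polyunsaturated route rather than within it.

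Of the 9 genes, 5 lie on chromosome 19 of the GRCm38 assembly and 4 elsewhere. Fads1 (ENSMUSG00000010663, chromosome 19 from 10182888 to 10196877, plus strand) and Fads2 (ENSMUSG00000024665, chromosome 19 from 10062765 to 10101746, minus strand) point away from each other, with 81142 bases between their starts. Scd2 (ENSMUSG00000025203, 44293674 to 44306864), Elovl3 (ENSMUSG00000038754, 46131897 to 46135694) and Acsl5 (ENSMUSG00000024981, 55251938 to 55297720) are on the plus strand of the same chromosome. Elovl2 (ENSMUSG00000021364, minus strand) spans 41182381 to 41220405 of chromosome 13. Elovl5 (ENSMUSG00000032349, plus strand) spans 77917364 to 77984519 of chromosome 9. Lpcat3 (ENSMUSG00000004270, plus strand) spans 124663027 to 124704418 of chromosome 6. Acsl1 (ENSMUSG00000018796, plus strand) spans 46471037 to 46536051 of chromosome 8. All 9 are annotated as protein coding, and the count of each gene sums reads over all its exons and isoforms, so splice forms were not resolved.

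Acsl1 is shown with its promoters because it was the most abundant of the 9 transcripts and because its single count pools transcripts from both starts. RefSeq (GRCm38.p6) held promoter windows, 250 bases before to 50 after a start, for 6 of the 9 genes and 8 starts in all. The upstream Acsl1 window, chr8:46470787-46471086 on the plus strand, had a GC content of 74%, and the downstream window, chr8:46490716-46491015 on the plus strand, had 50%. Capitals mark the GC box GGGCGG in the upstream window, and the CCAAT box and the sterol regulatory element core TCACNCCAC in the downstream window, searched on both strands.
Acsl1 upstream start: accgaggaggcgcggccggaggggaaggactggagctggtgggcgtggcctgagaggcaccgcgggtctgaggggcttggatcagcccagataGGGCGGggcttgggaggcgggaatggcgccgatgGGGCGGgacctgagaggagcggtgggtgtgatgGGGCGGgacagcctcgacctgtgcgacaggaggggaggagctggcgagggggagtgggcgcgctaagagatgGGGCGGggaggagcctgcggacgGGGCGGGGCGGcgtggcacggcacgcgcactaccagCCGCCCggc
Acsl1 downstream start: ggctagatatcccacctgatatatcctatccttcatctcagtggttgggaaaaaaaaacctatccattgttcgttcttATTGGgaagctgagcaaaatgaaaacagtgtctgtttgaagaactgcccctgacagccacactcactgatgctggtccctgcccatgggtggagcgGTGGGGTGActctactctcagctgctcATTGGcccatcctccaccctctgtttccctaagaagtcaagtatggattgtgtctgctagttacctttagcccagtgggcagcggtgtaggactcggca
The upstream window held 7 matches to the GC box, 2 of which overlap by 1 base, and none to the other motifs searched. The downstream window held 1 match to the sterol regulatory element core and 2 to the CCAAT box, all on the minus strand. Of the 8 windows, 1 held the sterol regulatory element core, 1 (Elovl5) the E-box CACGTG, 4 the CCAAT box, 4 the GC box and 0 the nuclear receptor half-site AGGTCA. Over 32851 promoter windows of the same length the shares were 1.24%, 7.15%, 37.41%, 35.66% and 16.26%. A match describes letters only and is not evidence of binding.

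The 8 libraries held 24829693 to 37823155 counts. Rbfox2 itself averaged 18.9 ± 3.39 in WT and 9.27 ± 2.83 in KO livers (SD, n = 5 and 3), or 49.0% of WT, in CPM, the count scaled to a common library size by the trimmed mean of M-values (TMM). All KO samples were below all WT samples (exact permutation p = 0.0179, which 5 against 3 samples cannot go below). For the log2 fold change of -1.03 ± 0.21 (SE), which was -0.85 without Rbfox2 KO 1, the adjusted p was 0.328 by the quasi-likelihood test of edgeR and 0.00186 by DESeq2. The library Rbfox2 KO 1 stood apart from the other 7 in several marker lists. Major urinary protein (Mup) genes, which are abundant in male liver, took 6.54% of its counts and 17.8% to 35.3% elsewhere. Its summed level of 12 pancreatic exocrine markers was 462 CPM. WT livers held 4.78 to 17.2 CPM and the other KO livers 4.86 and 5.93 CPM. By mean over all 8 libraries Amy2a5 was the most abundant of these markers. None of the 12 was at 0 in all 8, and 1 passed the filter on low counts. Among 6 adipocyte markers, of which 3 passed the filter on low counts, Cidec was the most abundant by that mean. Their sum was 28.5 to 45.1 CPM in WT, 25.4 and 18.4 in KO 2 and KO 3, and 95.7 CPM in Rbfox2 KO 1. Its 6 hepatocyte markers summed to 67748 CPM, against 76293 to 83012 CPM in WT, and its 6 stellate cell markers to 259 CPM, against 142 to 204 CPM in the other 7 livers. Kupffer cell and macrophage markers summed to 257 CPM in both KO 1 and KO 3, above the WT maximum of 224 CPM. Skeletal muscle markers summed to 295 CPM in WT 5, 206 CPM in WT 4 and 170 CPM in KO 1, and to 1.14 to 35.9 CPM in the other 5 livers. The part of these features in the results was not tested, and log2 fold changes of the 9 genes and of the named pathway genes are also given without Rbfox2 KO 1.

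None of the 9 genes passed a test of the difference between genotypes over all 8 livers. By edgeR, 0 of 9 passed an adjusted p of 0.05, 0 of 9 were under 0.05 before adjustment, and DESeq2 and limma-voom also called 0. Over all 14654 genes tested edgeR called 0 (0.0%), and DESeq2 called 59 of 14330 (0.412%). Unadjusted p fell under 0.05 for 694 genes (4.74%), and CPM ranges of the groups were apart for 543 (3.71%), whereas WT and KO ranges overlapped for 9 of 9 members. Without Rbfox2 KO 1 edgeR also called 0 of 9. The 9 log2 fold changes ran from -0.48 to 0.17 with a median of -0.01, beside a median of 0.000964 over all genes. The adjusted p of each of the 9 was 0.9999 by edgeR. The 95% interval of the difference was narrowest for Lpcat3, at 0.895-fold to 1.17-fold of WT, and widest for Elovl3, at 0.407-fold to 1.26-fold. In bulk liver, less RNA per cell and fewer cells of a type cannot be told apart.

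**Figure D1:**
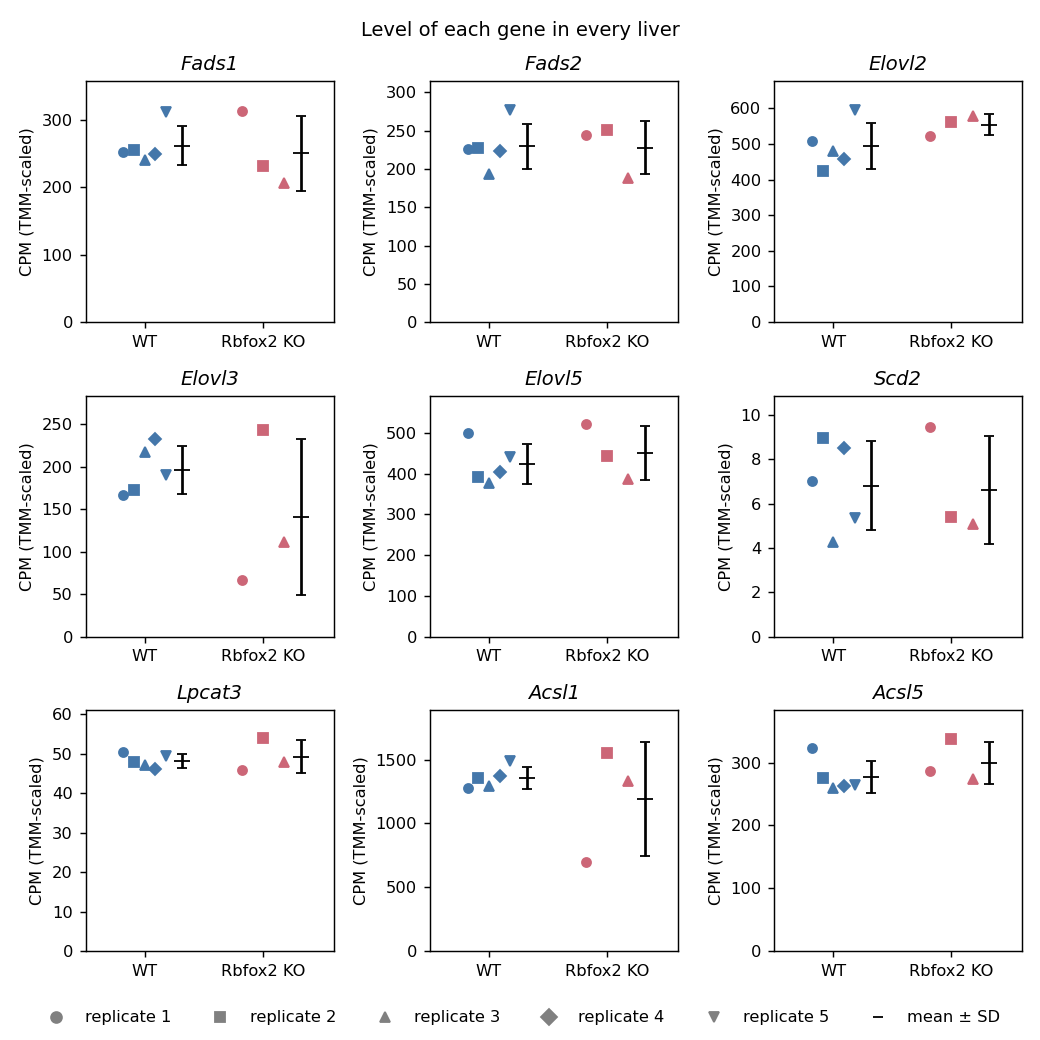
TMM-scaled CPM (vertical axis, from 0) of each gene in every liver, with 1 point per mouse, blue for WT (n = 5) and red for Rbfox2 KO (n = 3), a symbol for each replicate number, and bars for mean ± SD. WT and KO points overlap in all 9 panels, and the widest KO spread relative to its mean is that of Elovl3, from 66.6 to 243.5 CPM.

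The KO means of the desaturases of the polyunsaturated route were 95.6% (Fads1) and 99.1% (Fads2) of the WT means. Fads1, the delta-5 desaturase, had 253.2, 254.9, 240.4, 249.2 and 312.4 CPM in WT 1 to 5 and 313.6, 231.0 and 207.2 CPM in KO 1 to 3. The highest WT and the highest KO sample were nearly equal, and the KO samples reached above and below the WT range. Fads1 had a log2 fold change of -0.06 ± 0.15 (SE, exact permutation p = 0.768). Without Rbfox2 KO 1 the log2 fold change of Fads1 was -0.26 ± 0.13 (SE; edgeR adjusted p = 0.9998). Fads2, the delta-6 desaturase that opens the route, had 226.4, 227.2, 193.3, 223.7 and 276.7 CPM in WT and 244.0, 250.7 and 187.8 CPM in KO. Rbfox2 KO 1 and KO 2 lay inside the WT range and KO 3 was just below it. For Fads2 the log2 fold change was -0.01 ± 0.14 (SE, exact permutation p = 0.964), and its 95% interval ran from -0.32 to 0.29.

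Scd2, a stearoyl-CoA desaturase that makes monounsaturated fatty acids, was the scarcest of the 9, with 121 to 301 reads per library. It had 7.01, 8.95, 4.25, 8.49 and 5.35 CPM in WT and 9.44, 5.38 and 5.06 CPM in KO. The KO values were spread through the WT range, with Rbfox2 KO 1 slightly above its top. Scd2 had a log2 fold change of -0.04 ± 0.28 (SE, exact permutation p = 0.946), and -0.39 ± 0.28 (SE) without Rbfox2 KO 1. Of the 50-base windows of Scd2 exons, 4.01% also occur in another gene, mainly Scd1. Scd1 was far more abundant, at 955 CPM per kilobase of merged exons in WT against 1.25 for Scd2. How multi-mapped reads were counted was not given in the sources used here, so the uncertain part of the Scd2 count is not known. The same limit holds for the ratio of Scd2 to Scd1 and for the family share of Scd2, given below.

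The elongases of the polyunsaturated route had KO means of 112% (Elovl2) and 107% (Elovl5) of the WT means. Elovl2, which elongates the longest polyunsaturated chains, had 509.4, 424.9, 479.7, 457.6 and 595.6 CPM in WT and 521.1, 563.0 and 577.9 CPM in KO. All 3 KO samples were above 4 of the 5 WT samples and below WT 5. Elovl2 had a log2 fold change of 0.17 ± 0.12 (SE, exact permutation p = 0.196), and 0.24 without WT 5, the liver with the highest level. In the latter fit it was under 0.05 before adjustment by edgeR (0.0458), with an edgeR adjusted p of 0.9989. Elovl5, which elongates the products of FADS2, had 500.1, 391.6, 378.0, 404.6 and 439.9 CPM in WT and 520.8, 442.8 and 387.9 CPM in KO. In both genotypes replicate 1 was the highest sample, and the remaining samples overlapped. For Elovl5 the log2 fold change was 0.09 ± 0.13 (SE, exact permutation p = 0.518), and -0.03 ± 0.14 (SE) without Rbfox2 KO 1.

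Elovl3, which makes saturated and monounsaturated very-long-chain fatty acids, had the widest spread among KO livers relative to its mean. It had 167.1, 172.8, 217.0, 233.0 and 190.5 CPM in WT and 66.6, 243.5 and 111.6 CPM in KO. Rbfox2 KO 1 and KO 3 were below every WT sample and Rbfox2 KO 2 was above every one of them. Elovl3 averaged 196 ± 28.4 and 141 ± 92.0 CPM in WT and KO (SD, n = 5 and 3). This gave a log2 fold change of -0.48 ± 0.36 (SE, exact permutation p = 0.250), whose 95% interval ran from -1.30 to 0.33. It was -0.15 ± 0.27 (SE) without Rbfox2 KO 1. Without Rbfox2 KO 2, the liver with the highest level, it was -1.14. In the latter fit the edgeR p was 0.00055 before adjustment and 0.237 after it.

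The acyl-CoA synthetases included the most abundant transcript of the 9 by count. Acsl1, the main long-chain acyl-CoA synthetase of liver, had 1274, 1355, 1294, 1370 and 1492 CPM in WT and 695, 1551 and 1330 CPM in KO. Rbfox2 KO 1 had 51.3% of the WT median, whereas KO 3 lay inside the WT range and KO 2 just above it. Acsl1 had a log2 fold change of -0.19 ± 0.22 (SE, exact permutation p = 0.536), and 0.08 ± 0.12 (SE) without Rbfox2 KO 1. Acsl5, which activates fatty acids at mitochondria and the endoplasmic reticulum, had 322.5, 275.3, 260.0, 262.0 and 265.0 CPM in WT and 287.2, 337.7 and 273.1 CPM in KO. WT 1 and Rbfox2 KO 2 were high and the others lay closer together. For Acsl5 the log2 fold change was 0.11 ± 0.11 (SE, exact permutation p = 0.357). Acsl5 shares 404 exonic bases with Zdhhc6 on the opposite strand, and whether counting used strand was not given in the sources used here.

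Lpcat3, the acyltransferase of phospholipid remodelling, was the steadiest of the 9 among WT livers. It had 50.5, 47.9, 47.1, 46.1 and 49.3 CPM in WT and 45.9, 54.0 and 47.9 CPM in KO. The samples differed by little in either genotype, with 48.2 ± 1.72 and 49.3 ± 4.23 CPM in WT and KO (SD, n = 5 and 3). Lpcat3 had a log2 fold change of 0.03 ± 0.09 (SE, exact permutation p = 0.661), the narrowest 95% interval of the 9 (-0.16 to 0.22). Lpcat3 overlaps 334 exonic bases of Emg1 on the opposite strand, and 10.2% of its 50-base windows occur in another gene, mainly Emg1. For the genes whose value without Rbfox2 KO 1 is not given above, the log2 fold changes in that fit were -0.07 (Fads2), 0.20 (Elovl2), 0.07 (Lpcat3) and 0.13 (Acsl5).

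**Figure D2:**
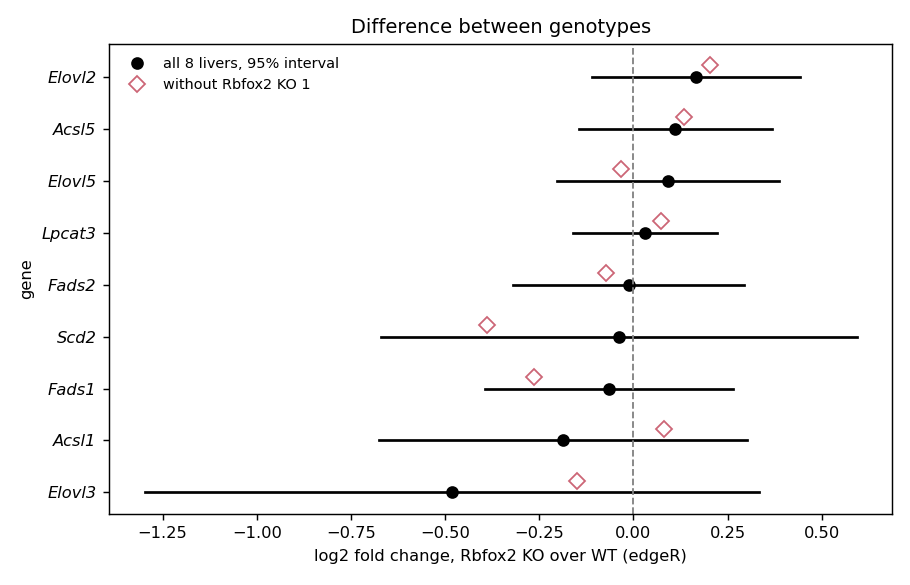
Log2 fold change of each gene, Rbfox2 KO over WT (horizontal axis, edgeR), as filled points with 95% intervals over all 8 livers, and as open diamonds without Rbfox2 KO 1. Every interval crosses 0, and the largest shifts on leaving out that library are those of Scd2, Elovl3 and Acsl1.

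The spread between WT mice differed among the genes. The SD of log2 CPM over the 5 WT livers was at percentile 1.57 of all tested genes for Lpcat3, 8.41 for Acsl1 and 21.01 for Acsl5. Fads1, Elovl5, Fads2, Elovl2 and Elovl3 lay between percentiles 27.6 and 46.2. Scd2, the gene with the lowest counts, was at percentile 86.1. The biological coefficient of variation fitted over both genotypes ran from 10.7% for Lpcat3 to 33.7% for Elovl3.

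Rbfox2 KO 1 also had a different balance among the 9 genes. Their CPM summed to 2703 in that liver and to 3114 to 3680 in the others. Acsl1 made up 25.7% of that sum in Rbfox2 KO 1 and 38.5% to 42.9% elsewhere.

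Levels of different genes were compared as CPM per kilobase of merged exons. In WT the order was Acsl1 (129 ± 8.15), Elovl2 (124 ± 16.4), Elovl5 (120 ± 13.9), Elovl3 (99.3 ± 14.4), Fads2 (69.6 ± 9.08), Acsl5 (56.9 ± 5.37), Fads1 (54.5 ± 5.97), Lpcat3 (14.7 ± 0.528) and Scd2 (1.25 ± 0.367), all SD with n = 5. The WT ranges of neighbours overlapped from Acsl1 down to Elovl3 and from Fads2 down to Fads1. They were apart between Elovl3 and Fads2, between Fads1 and Lpcat3 and between Lpcat3 and Scd2. With the length of the longest protein-coding transcript in place of merged exons, Acsl1 was at 348 ± 21.9 and clear of the rest, since its merged exons span 10483 bases and that transcript 3897. On that scale Elovl5 (152) was above Elovl2 (128) and Fads1 (75.7) above Fads2 (72.8).

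Within each enzyme family the members differed widely in their share of the family's level per kilobase. Scd1, the main stearoyl-CoA desaturase of adult liver, was at 955 ± 328 CPM per kilobase in WT, so that Scd2 made up 0.135% of the family in WT and 0.138% in KO. Lpcat3 made up 93.3% ± 0.931 (SD, n = 5) of the 4 lysophosphatidylcholine acyltransferases in WT and 92.6% ± 1.40 (SD, n = 3) in KO. Fads2 and Fads1 made up 51.2% and 40.1% of the fatty acid desaturases in WT and 51.7% and 38.8% in KO. Fads6 held most of the remainder. Elovl2, Elovl5 and Elovl3 made up 35.0%, 33.9% and 28.1% of the elongases in WT and 40.3%, 37.0% and 19.6% in KO, where the share of Elovl3 had an SD of 10.4 percentage points. Acsl1 and Acsl5 made up 67.2% and 29.6% of the long-chain acyl-CoA synthetases in WT and 61.1% and 35.1% in KO. The SDs of these shares were 2.51 and 2.90 percentage points in WT and 9.73 and 8.13 in KO. With the longest transcript as the length, Acsl1 and Acsl5 made up 82.8% and 15.6% in WT and 78.4% and 19.6% in KO. On that scale Fads1 (46.1%) was above Fads2 (44.3%) in WT but not in KO (44.6% and 44.8%), and Elovl5 was above Elovl2 in WT (38.1% and 32.1%) and in KO (41.3% and 36.8%). These shares were not tested, and none of the tested family members passed an edgeR adjusted p of 0.05.

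**Figure D3:**
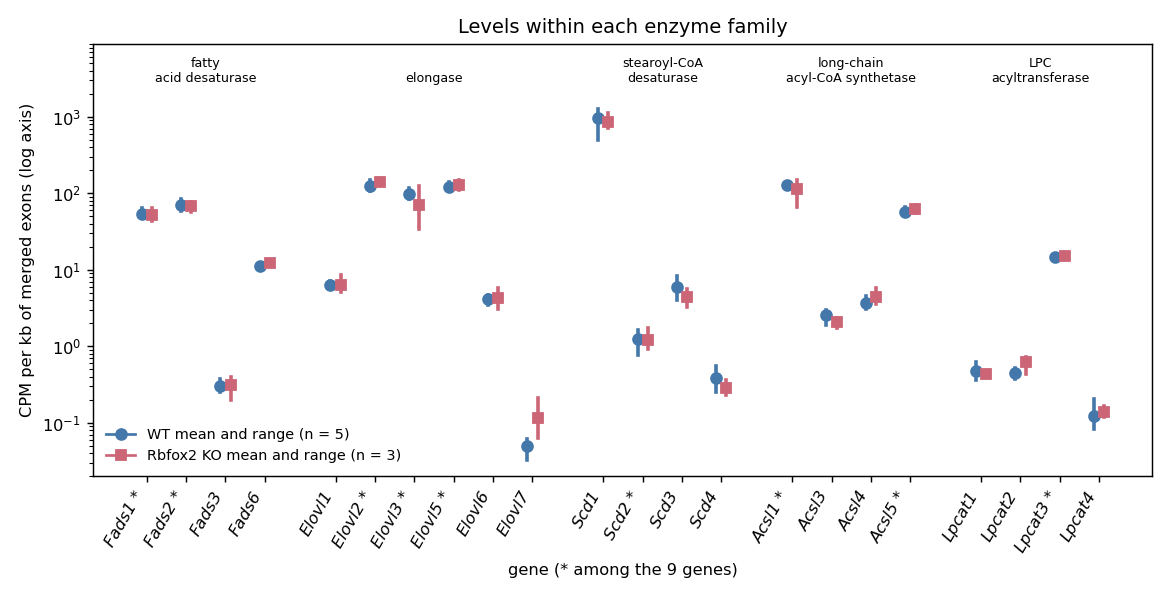
Level per kilobase of merged exons (vertical log axis, CPM per kb) of the enzymes of 5 families, with means and ranges for WT (blue circles, n = 5) and Rbfox2 KO (red squares, n = 3). Asterisks mark the 9 genes, Elovl4 and Acsl6 are left out as they lie under the axis, and Scd1 is the highest enzyme shown at 955 CPM per kb in WT.

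Ratios of counts within a library do not depend on how libraries are scaled, and 5 were compared. The log2 ratio of Fads1 to Fads2 averaged 0.19 ± 0.07 and 0.13 ± 0.24 in WT and KO (SD, n = 5 and 3, exact permutation p = 0.643, adjusted p = 0.804 over 5 ratios). In WT it was 0.16, 0.17, 0.31, 0.16 and 0.18, and in KO it was 0.36, -0.12 and 0.14. The KO livers thus lay on both sides of the WT samples. The log2 ratio of Acsl1 to Acsl5 was 1.98, 2.30, 2.31, 2.39 and 2.49 in WT and 1.27, 2.20 and 2.28 in KO. Rbfox2 KO 1 alone was below the WT range. The difference of means was -0.38 (exact permutation p = 0.161, adjusted p = 0.804), and -0.053 without Rbfox2 KO 1 (exact permutation p = 0.714). For Elovl5 to Elovl2 the difference was -0.09 (p = 0.607, exact permutation), for Scd2 to Scd1 0.05 (p = 0.857, exact permutation) and for Lpcat3 to Lpcat1 0.15 (p = 0.446, exact permutation), with adjusted p of 0.804 to 0.857.

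**Figure D4:**
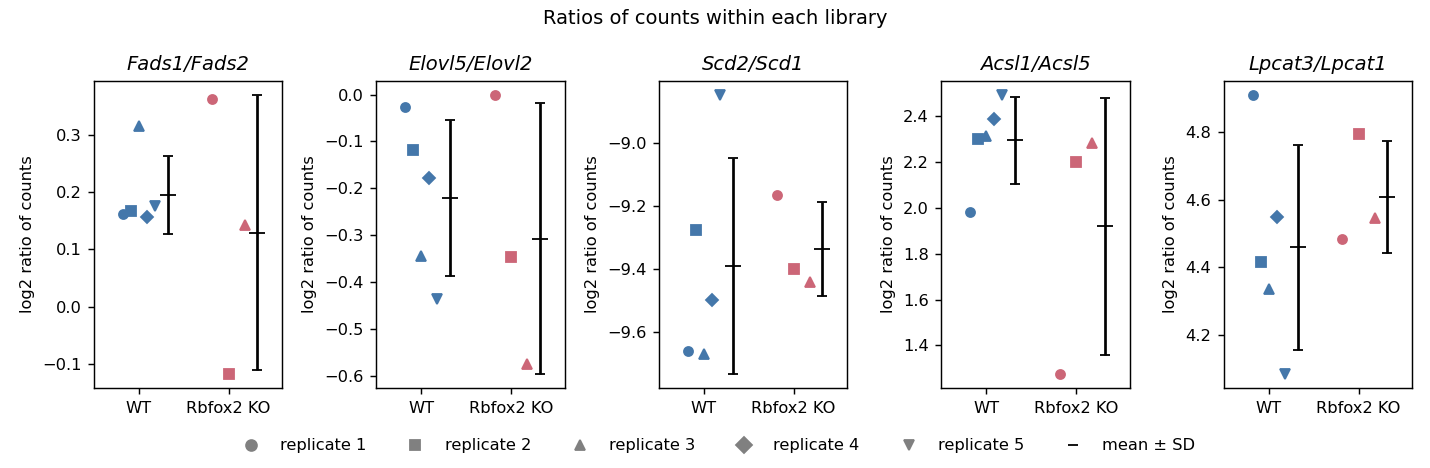
Log2 ratio of counts (vertical axis, not starting at 0) of 5 gene pairs in each liver, blue for WT (n = 5) and red for Rbfox2 KO (n = 3), with mean ± SD. WT and KO points overlap in each panel, and the Acsl1 to Acsl5 ratio of Rbfox2 KO 1 lies at 1.27, below the others.

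Whether the 9 genes varied together from mouse to mouse was then examined. Of the 36 pairs, 0 passed an adjusted p of 0.05 for Pearson's r of log2 CPM over the 8 livers (exact permutation over 40320 pairings), and 3 had an unadjusted p under 0.05. Elovl3 and Acsl1 had an r of 0.861 (exact permutation p = 0.019, adjusted p = 0.378) and a rho of 0.762 (exact permutation p = 0.037, adjusted p = 0.779). The r was 0.480 without the 2 samples farthest from the median of the first gene of the pair, here Rbfox2 KO 1 and KO 3. It was 0.431 without Rbfox2 KO 1 alone, which was lowest for both genes. Fads1 and Fads2, the divergent neighbours, had an r of 0.738 (exact permutation p = 0.0321, adjusted p = 0.385) and a rho of 0.595 (exact permutation p = 0.132, adjusted p = 0.779). That r was 0.507 without the 2 farthest samples, 0.746 after centring within genotype and 0.767 without Rbfox2 KO 1. Lpcat3 and Acsl5 had an r of 0.794 (exact permutation p = 0.021, adjusted p = 0.378) and a rho of 0.524 (exact permutation p = 0.197, adjusted p = 0.779), and r was 0.797 after centring within genotype and 0.898 without Rbfox2 KO 1. It turned to -0.274 without the 2 farthest samples, Rbfox2 KO 2 and WT 1. Leaving out the extremes of a gene narrows its range, which alone can lower r. These values therefore do not decide which samples a relation rests on.

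The genes whose log2 CPM followed each member most closely were listed as a description, over 8 livers and 6599 or 6600 genes with a mean above 10 CPM. They were Fam20a (r = 0.970) and Gas6 (0.966) for Fads1, Gpat3 (0.898) and Tmem143 (0.869) for Fads2, and Elovl6 (0.915) and Rcan1 (0.914) for Scd2. For the elongases they were Prkag2 (0.924) and Brap (0.920) for Elovl2, Coq5 (0.963) and Abhd6 (0.957) for Elovl3, and Idh2 (0.961) and Ly6a (0.953) for Elovl5. For the remaining genes they were Cpt2 (0.951) and Acot8 (0.920) for Lpcat3, Dnase1l3 (0.988) and Cpox (0.985) for Acsl1, and Dlst (0.989) and Hacd3 (0.941) for Acsl5. Without the 2 livers farthest from the median of the member these values ran from 0.389 (Hacd3 with Acsl5) to 0.976 (Dlst with Acsl5). Acsl1 had 59 genes with r over 0.9 and Fads2 had 0.

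The surrounding pathway was examined through 6 lists holding 101 other genes, of which 95 were tested. By edgeR 0 of 95 passed an adjusted p of 0.05, and 5 (5.26%) were under 0.05 before adjustment, 2 higher and 3 lower in KO, beside 4.74% of all genes. The groups did not overlap for 3 of 95 (3.16%), beside 3.71% of all genes. Without Rbfox2 KO 1 edgeR again called 0, and 4 genes were under 0.05 before adjustment. The median log2 fold change was 0.02, with 54 genes above 0 and 41 below. Neither the 13 genes tested of desaturation and elongation nor the 23 of lysophospholipid reacylation and phospholipase A2 included one with an unadjusted p under 0.05. Their median log2 fold changes were 0.02 and 0.04. In the first of these lists the genes with the smallest p were Scd3 (log2 fold change -0.43 ± 0.28, SE), Scd4 (-0.44 ± 0.30) and Fads6 (0.11 ± 0.08). Fads6, a desaturase-like gene of less well known function, had every KO sample above every WT sample, at 81.8 ± 3.03 CPM (SD, n = 3) against 75.6 ± 2.19 CPM (SD, n = 5), with an edgeR p of 0.182. Their values without Rbfox2 KO 1 were -0.65 (Scd3), -0.67 (Scd4) and 0.08 (Fads6).

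Among the genes of peroxisomal chain shortening, which trims very long chains, 1 of 11 had an unadjusted edgeR p under 0.05 and the median log2 fold change was 0.02. It was Ehhadh, the bifunctional enzyme of peroxisomal beta-oxidation, with 615, 598, 724, 686 and 755 CPM in WT and 748, 1334 and 1547 CPM in KO. Rbfox2 KO 2 and KO 3 were above every WT sample, and KO 1 was within the WT range. The adjusted p of Ehhadh (log2 fold change 0.84 ± 0.20, SE) was 0.483 by edgeR and 0.0201 by DESeq2, which made it the 1 pathway gene that DESeq2 called. Without Rbfox2 KO 1 its log2 fold change was 1.09. Decr2, an auxiliary enzyme for unsaturated chains, had a log2 fold change of -0.14 ± 0.11 (SE). It was -0.09 without that library.

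Among 12 genes of acyl-CoA synthesis and binding, 1 had an unadjusted p under 0.05 and the median log2 fold change was -0.06. It was Acss2, which makes acetyl-CoA from acetate, with WT and KO means of 46.5 ± 3.01 and 37.6 ± 6.63 CPM (SD, n = 5 and 3, edgeR adjusted p = 0.954). The thioesterases Acot7 and Acot2 had log2 fold changes of 0.22 ± 0.11 and 0.50 ± 0.27 (SE). Acot2 was at 227 CPM in Rbfox2 KO 2, at 93.1 and 96.7 CPM in KO 1 and KO 3, and between 84.8 and 110 CPM in WT. Without Rbfox2 KO 1 the log2 fold changes were -0.21 (Acss2, no longer under 0.05 before adjustment), 0.18 (Acot7) and 0.72 (Acot2, then under 0.05 before adjustment).

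Of 22 genes of head group synthesis, 2 had an unadjusted p under 0.05, 1 in each direction, and the median log2 fold change was 0.07. Chpt1, a cholinephosphotransferase that makes phosphatidylcholine, had 270, 272, 309, 287 and 292 CPM in WT and 166, 259 and 235 CPM in KO. All KO samples were below all WT samples (log2 fold change -0.38 ± 0.14, edgeR adjusted p = 0.949; exact permutation p = 0.0179). Etnk2, an ethanolamine kinase, had WT and KO means of 195 ± 44.4 and 265 ± 23.9 CPM (SD, n = 5 and 3, log2 fold change 0.44 ± 0.17, edgeR adjusted p = 0.954). Cds1, which makes CDP-diacylglycerol, was scarce at 0.289 ± 0.142 and 0.548 ± 0.202 CPM in WT and KO (SD, n = 5 and 3). Among the acyltransferases, Lpcat2, Agpat5 and Gpat4 had log2 fold changes of 0.47 ± 0.22, 0.24 ± 0.18 and 0.12 ± 0.10 (SE). Those of Chpt1 and Etnk2 without Rbfox2 KO 1 were -0.22 and 0.38, neither under 0.05 before adjustment, and that of Cds1 was 0.77. In the same fit Lpcat2, Agpat5 and Gpat4 had 0.37, 0.053 and 0.16.

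Of 14 lipid-sensing regulators, 1 had an unadjusted p under 0.05 and the median log2 fold change was -0.04. It was Srebf1, which encodes the transcription factor SREBP1 and is known to drive genes of fatty acid desaturation. It had 49.4, 36.3, 36.2, 39.0 and 31.3 CPM in WT and 26.8, 30.7 and 24.1 CPM in KO. All KO samples were below all WT samples (log2 fold change -0.50 ± 0.15; exact permutation p = 0.0536), with an adjusted p of 0.809 by edgeR and 0.260 by DESeq2. Srebf2 and Insig1, which act in sterol sensing, had log2 fold changes of -0.41 ± 0.24 and -0.61 ± 0.36 (SE), and both were lowest in Rbfox2 KO 1. Without that library the values were -0.49 for Srebf1, -0.21 for Srebf2 and -0.27 for Insig1.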

How the data were processed

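Poly(A)-selected RNA from livers of 5 WT and 3 Rbfox2 KO mice was sequenced by the authors as paired-end, strand-specific libraries, aligned to GRCm38 with TopHat2 2.0.11, and counted per gene with featureCounts. Raw counts of reads for each Ensembl gene were deposited. Counting by strand and of multi-mapped reads was not given in the sources used here. Groups came from the sample labels, and 0 sample columns were left without a sample. The labels number the liver samples, and each was taken to be a separate mouse. The p-values of genotype differences set them against the spread between these samples.

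Genes were filtered with filterByExpr of edgeR 4.0.16 (R 4.3.3), which left 14654, and scaled by TMM. The genotype effect was fitted in edgeR by robust quasi-likelihood (F test), with Benjamini-Hochberg adjustment over all tested genes at 0.05. DESeq2 1.42.0 and limma-voom (limma 3.58.1) were alternatives, beside other scalings and filters, a non-robust fit, a replicate block and leaving out each sample. For single values a two-sided exact permutation test used all 56 splits. Log2 CPM used a prior count of 2, and ratios a pseudocount of 0.5. Lengths and positions came from GENCODE M21 (GRCm38). A level of 3 counts, the smallest taken as detectable, equals 0.0793 to 0.121 CPM, for counting error only. No pair of libraries within a group agreed within sampling noise (chi-square per degree of freedom 45.8 or more). The procedure was tested on simulated data.

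The members, lists and motifs were chosen with earlier results of these data known. Named genes were the 9 members, Rbfox2, from each list the 3 genes of smallest edgeR p, and the 2 genes most correlated with each member among those over 10 CPM. Gene length by the longest transcript was added after seeing the data. A result for 1 named gene is not reported here.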

Additional observations from a re-analysis of the deposited data

Results flagged for a closer look

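Single WT livers lay far from the other 4 by Dixon's gap ratio for 3 of 14 values examined. Chance alone would give about 1 in 20, or 0.7. The values are not independent, since the ratios use the same genes, so this is no test of an excess. For Fads1, WT 5 had 312.4 CPM against 240.4 to 254.9 CPM in the other WT livers, a gap of 0.798 of the whole range. For Acsl5, WT 1 had 322.5 CPM against 260.0 to 275.3 CPM, a gap of 0.755 of the range. For the log2 ratio of Fads1 to Fads2, WT 3 had 0.31 against 0.16 to 0.18, a gap of 0.877 of the range. WT 3 was also the library with the highest share of Mup counts, 35.3%, and its part in the ratio was not tested. The KO group has 3 samples and was not examined in this way.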

How the results depend on the processing

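No alternative called any of the 9 genes. Over all genes the call count was 6 with no filter on low counts and 59 with DESeq2 (22 higher, 37 lower), where the 1 pathway gene called was Ehhadh and Rbfox2 passed with a log2 fold change of -1.03 (DESeq2 adjusted p = 0.00186). Scaling by library totals moved the median log2 fold change of all genes by 0.11 and gave 0.075 for Fads1, 0.096 for Fads2 and 0.13 for Scd2, which changed sign (relative to that median -0.039, -0.019 and 0.013), with mean CPM differences of 13.9, 15.6 and 0.640. With that scaling 10 pairs of members passed the adjusted threshold, and the cause was not tested.

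The labels do not say whether equal sample numbers mark a shared litter or batch, and samples were not treated as pairs. Deviations of same-numbered samples correlated at 0.0484 to 0.170 over genes, and those of differently numbered samples at -0.412 to 0.371. So few pairs cannot decide the question. With the replicate block 0 genes were called, 739 had an unadjusted p under 0.05 against 694 without it, and the log2 fold change of Fads2 was 0.069.

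Leaving out each sample in turn gave log2 fold changes from -0.26 to 0.054 for Fads1, -0.089 to 0.11 for Fads2, -0.032 to 0.19 for Elovl5, -0.39 to 0.12 for Scd2, -0.039 to 0.074 for Lpcat3 and -0.42 to 0.080 for Acsl1. For Acsl5 the range was 0.016 to 0.17, lowest without Rbfox2 KO 2, where the mean CPM difference was 3.15. The sign turned without WT 5 for Fads1 and Fads2, without WT 2 or WT 4 for Scd2, without Rbfox2 KO 1 for Elovl5 and Acsl1, without KO 2 for Scd2 and Lpcat3, and without KO 3 for Fads1, Fads2 and Scd2. Mean CPM differences ran from -42.9 to 10.3, -13.6 to 17.9, -7.47 to 58.98, -1.59 to 0.602, -1.29 to 2.78 and -344 to 84.1 for these genes in the same order. The log2 ratio difference ran from -0.18 to 0.058 for Fads1 to Fads2, -0.24 to 0.047 for Elovl5 to Elovl2 and -0.031 to 0.19 for Scd2 to Scd1. Their signs turned without Rbfox2 KO 2, without KO 3, and without WT 1, WT 3 or KO 1, respectively. The Acsl1 to Acsl5 ratio difference ran from -0.56 without KO 3 to -0.053 without KO 1, and the Lpcat3 to Lpcat1 one from 0.055 without KO 2 to 0.26 without WT 1. The Fads1 to Fads2 ratio without Rbfox2 KO 1, the Acsl1 to Acsl5 ratio without WT 1 (-0.45) and the mean CPM difference of Elovl3 without Rbfox2 KO 2 (-107) had exact permutation p of 0.0476, 0.0286 and 0.0476, unadjusted. The 3 KO livers limit the precision of every comparison.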
